A study of Saccharomyces cerevisiae with 24 samples.

Results

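The 26S proteasome degrades ubiquitin-tagged proteins, and its transcripts were followed here in 3 budding yeast strains as their cultures left log phase and entered stationary phase. The members were chosen by name: the genes of the 20S core and the 19S regulatory particle plus the activator RPN4, 33 of the 6692 ORFs counted. The alpha ring of the core, which gates entry to the chamber, is encoded by SCL1 (YGL011C), PRE8 (YML092C), PRE9 (YGR135W), PRE6 (YOL038W), PUP2 (YGR253C), PRE5 (YMR314W) and PRE10 (YOR362C). The beta ring, which carries the proteolytic sites, is encoded by PRE3 (YJL001W), PUP1 (YOR157C), PUP3 (YER094C), PRE1 (YER012W), PRE2 (YPR103W), PRE7 (YBL041W) and PRE4 (YFR050C). The 6 ATPases of the 19S base, which unfold substrates, are RPT1 (YKL145W), RPT2 (YDL007W), RPT3 (YDR394W), RPT4 (YOR259C), RPT5 (YOR117W) and RPT6 (YGL048C). The scaffold and ubiquitin-binding subunits of the base are RPN1 (YHR027C), RPN2 (YIL075C), RPN10 (YHR200W) and RPN13 (YLR421C). The 19S lid is represented by RPN3 (YER021W), RPN5 (YDL147W), RPN6 (YDL097C), RPN7 (YPR108W), RPN8 (YOR261C), RPN9 (YDR427W), RPN11 (YFR004W) and RPN12 (YFR052W). RPN4 itself is YDL020C, and all 33 ORFs passed the filter on low counts.

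In growing yeast the genes for the particle are largely transcribed in concert, because most of their promoters hold a short element, the proteasome-associated control element or PACE, that the zinc-finger protein Rpn4 binds. Rpn4 is itself degraded by the proteasome within minutes, so that the amount of active particle feeds back on the transcription of its own subunits. The RPN4 gene is in turn induced by stress regulators that include Hsf1, Yap1, Pdr1 and Pdr3. When yeast cells become quiescent the 26S particle is known to come apart and to gather with its core in cytoplasmic storage granules, so the levels of transcripts and of assembled particles need not go together.

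The letters of PACE, GGTGGCAAA, were searched on both strands of the 300 bases before each start codon in the R64 reference. An exact match was present in 27 of the 32 subunit promoters (84.4%), against 72 of 5985 protein-coding promoters of the same length (1.2%). Each of the 27 promoters held 1 match, with its last base 76 to 175 bases before the start codon (median 112), and in 19 of them the letters read in the direction of the gene. All 6 ATPase promoters had it, as did 6 of 7 in each ring of the core, 7 of 8 in the lid and 2 of 4 among the other base subunits. The promoters of PRE5, PUP1, RPN8, RPN10 and RPN13, and that of RPN4 itself, had no exact match. The shorter GGTGGC, which every PACE contains, was also found in RPN10 and RPN13, for 29 of 32 subunits (90.6%) against 386 of 5985 promoters (6.45%). In both genes it continued as GGTGGCGAA, a 9-base variant searched after these windows had been seen and present in 26 of 5985 promoters (0.434%). The windows below belong to genes to which the comparisons return, and are printed in the direction of the gene with the matched letters in capitals (TTTGCCACC is the same element on the other strand, and GCCACC the shorter one).
PRE9: ttaccctgcaGGTGGCAAAaaatttataga
PUP2: aaccaagaccGGTGGCAAAagagtaaccta
RPT6: atgcgagcgaGGTGGCAAAagttgtaatat
RPN1: tgtgttttacGGTGGCAAAaggcgagcacg
RPN7: ataagttaagTTTGCCACCcattgaggatt
RPN10: aggcgggttttcGCCACCggaatttacaac
RPN13: tattattcgcgaGGTGGCgaaagctttgct
The PRE9 window is R64 chrVII:761223-761252 on the plus strand, that of PUP2 is chrVII:999225-999254 on the minus strand, that of RPT6 is chrVII:411351-411380 on the minus strand and that of RPN1 is chrVIII:164837-164866 on the minus strand. The RPN7 window is chrXVI:742290-742319 on the plus strand, that of RPN10 is chrVIII:498969-498998 on the plus strand and that of RPN13 is chrXII:965657-965686 on the minus strand. All lie upstream of the coding sequence. No member overlapped another annotated gene, and none shared a 75-base stretch of sequence with another place in the genome.

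Poly(A) RNA was sequenced from JS1416, JS1394 and JS1256 at 5, 24 and 48 hr. All 3 strains are MATa his3∆1 leu2∆0 met15∆0 ura3∆0. JS1394 (snf1∆) carries snf1∆::kanMX4 and so lacks the catalytic subunit of the Snf1 kinase, the yeast AMPK ortholog needed for growth without glucose, JS1256 is the wild type (WT), and JS1416 is 1 suppressor clone that arose by regrowth of an aged JS1394 culture, so that it has the same deletion together with the missense allele cyc8-G337S in a subunit of the Cyc8-Tup1 co-repressor. There were 3 libraries for each strain and time, except 1 for JS1416 at 5 hr and 2 at 24 hr, and the study's methods describe separate cultures. The labels give rich glucose medium and a 5 hr log-phase time, whereas the study's methods give a synthetic medium and a slightly later log-phase time. Total counts ran between 747098 in the library labelled JS1416 48 hr replicate 3 and 29070805 in that labelled JS1416 48 hr replicate 2. SNF1 averaged at most 2.78 CPM (read counts relative to the scaled library total) in any group of the deleted strains, against at least 49.9 CPM in any WT group.

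The labels of 2 libraries at 48 hr were doubtful, and both touch the proteasome genes. Pearson's r over the log2 CPM of all tested genes placed each nearer to the other strain, as a description across genes. For the library labelled snf1∆ replicate 3 it was 0.984 with JS1416 replicate 2 and 0.939 with JS1416 replicate 3, but 0.905 and 0.901 with its own group. For that labelled JS1416 replicate 1 it was 0.984 and 0.981 with the first pair of snf1∆ replicates, but 0.928 and 0.884 with its own group. SNF1 is deleted in both strains and cannot tell them apart. Both were kept as labelled, and for each 48 hr comparison that uses them the counts of called members are also given without them. Values of single genes without them are given where stated. They were picked from these same counts, so results without them are not independent of that choice.

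RPN4 rose more than any subunit in WT at 24 hr, and of the members it separated snf1∆ furthest from the other strains at that time. At 5 hr it stood at 85.7 CPM in the JS1416 library, 46.6, 48.4 and 46.1 CPM in snf1∆ and 46.6, 50.2 and 49.1 CPM in WT, each scaled by trimmed mean of M-values (TMM). At 24 hr the values were 190.3 and 187 CPM in JS1416, 28.1, 27.7 and 31.1 CPM in snf1∆ and 271, 284 and 272 CPM in WT. At 48 hr they were 115, 133 and 121 CPM in JS1416, 114, 103 and 138 CPM in snf1∆ and 207, 168 and 198 CPM in WT. At 24 hr the 3 strains did not overlap, with WT highest, JS1416 next and snf1∆ below even its own log-phase libraries, and at 48 hr JS1416 and snf1∆ overlapped below WT. RPN4 fell in snf1∆ at 24 hr over 5 hr (log2 fold change -0.69, SE 0.12, edgeR adjusted p = 5.57e-05) and rose in WT over the same interval (log2 fold change 2.50, SE 0.13, edgeR adjusted p = 3.01e-13). The difference between these responses, snf1∆ minus WT, was itself past the threshold (log2 fold change -3.20, SE 0.18, edgeR adjusted p = 1.45e-10). RPN4 was accordingly lower in snf1∆ than in WT at 24 hr (log2 fold change -3.24, SE 0.13, edgeR adjusted p = 5.91e-13) and higher in JS1416 than in snf1∆ (log2 fold change 2.70, SE 0.14, edgeR adjusted p = 1.58e-11), while JS1416 stayed below WT (log2 fold change -0.55, SE 0.14, edgeR adjusted p = 0.00289).

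**Figure D1:**
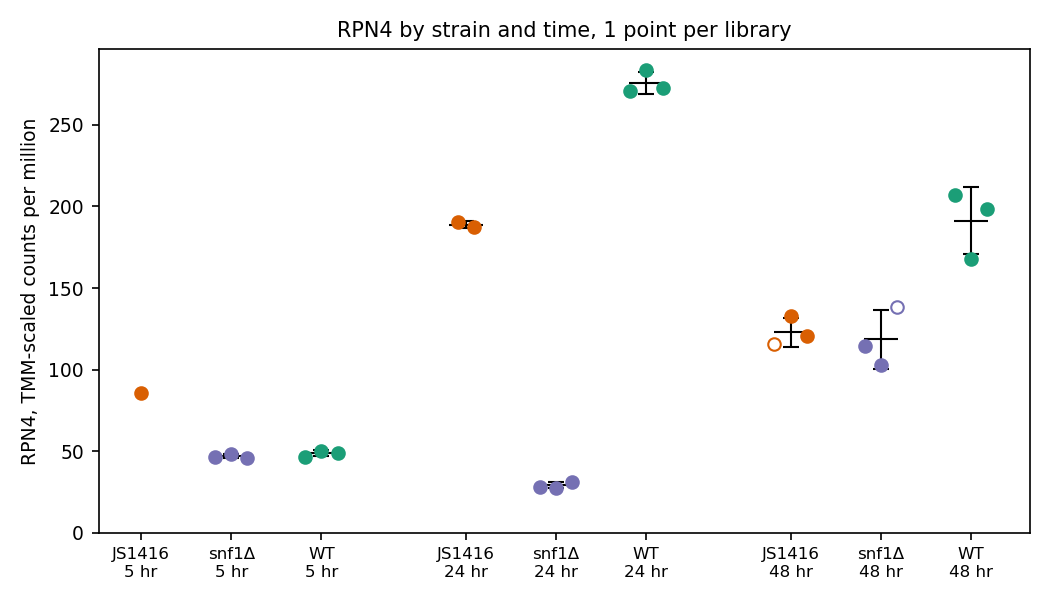
TMM-scaled CPM of RPN4 (y axis) in each library, with strains and times on the x axis. Bars mark the mean and SD of groups with 2 or more libraries, and open points are the libraries labelled JS1416 48 hr replicate 1 and snf1∆ 48 hr replicate 3. At 24 hr the snf1∆ libraries sit between 27.7 and 31.1 CPM, below all JS1416 and WT libraries.

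RPN4 fell at 48 hr in WT relative to 24 hr (log2 fold change -0.53, SE 0.12, edgeR adjusted p = 0.00183) and in JS1416 (log2 fold change -0.62, SE 0.13, edgeR adjusted p = 0.0038), and rose in snf1∆ (log2 fold change 2.03, SE 0.13, edgeR adjusted p = 7.76e-10). At library size alone the WT value was -0.04 and the JS1416 value -0.10, neither called, whereas the snf1∆ rise was 1.61. With the 2 doubtful libraries left out the JS1416 value was -0.56 and the snf1∆ rise 1.90, both called. At 48 hr RPN4 was lower than in WT both in snf1∆ (log2 fold change -0.69, SE 0.12, edgeR adjusted p = 2.27e-04) and in JS1416 (log2 fold change -0.63, SE 0.12, edgeR adjusted p = 5.40e-04), and between JS1416 and snf1∆ the difference was 0.05 with a 95% interval of -0.21 to 0.32. Without the 2 doubtful libraries these 3 log2 differences were -0.82, -0.58 and 0.24, the last not called. At 5 hr the snf1∆ minus WT difference was -0.05 with an interval of -0.31 to 0.21.

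The 32 subunits taken as a sum followed another pattern than RPN4. Their summed CPM at 5 hr was 5565 in JS1416, 4976, 5213 and 4888 in snf1∆ and 4879, 5248 and 5070 in WT. At 24 hr it was 3555 and 3618 in JS1416, 4051, 4268 and 4515 in snf1∆ and 4995, 4962 and 4979 in WT. At 48 hr it was 3154, 3498 and 3944 in JS1416, 3147, 3044 and 3562 in snf1∆ and 4118, 4053 and 4321 in WT. On this TMM scale the WT libraries at 24 hr lay within the log-phase range of WT although RPN4 had risen. As a share of all counts the WT subunits were lower at 24 hr, at 0.412, 0.416 and 0.434%, against 0.5837, 0.6345 and 0.6106% at 5 hr. By TMM the 3 strains separated in full at 24 hr in the order WT, snf1∆, JS1416, and at 48 hr the deleted strains lay below WT.

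**Figure D2:**
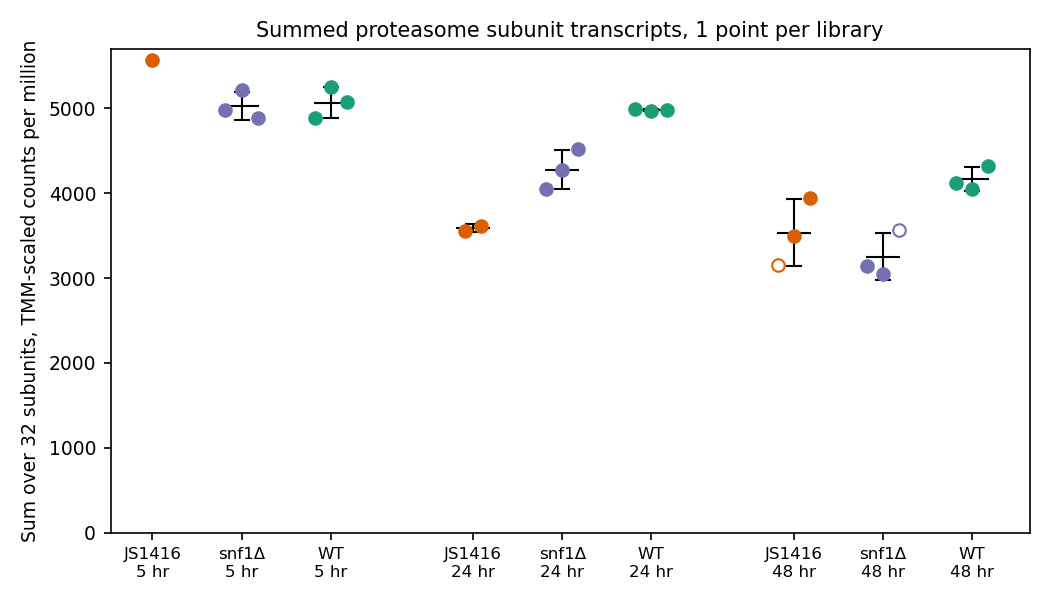
Sum over the 32 subunits of TMM-scaled CPM (y axis) in each library, by strain and time (x axis). Bars mark the mean and SD of groups with 2 or more libraries, and open points are the 2 doubtful 48 hr libraries. WT at 24 hr lies at 4962 to 4995 CPM, above snf1∆ at 4051 to 4515 and JS1416 at 3555 and 3618.

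The directions of changes of this size depend on the scaling. As a share of all counts the subunits made up 0.227 and 0.234% in JS1416 at 24 hr, 0.449, 0.46 and 0.541% in snf1∆ and 0.412, 0.416 and 0.434% in WT, so that by raw share snf1∆ lay above WT and by TMM below it. With library sizes as the only scaling, the median over all genes moved by -0.51 on the log2 scale for WT at 24 over 5 hr, by 0.48 for WT at 48 over 24 hr and by 0.42 for snf1∆ over WT at 24 hr. Relative to that median, the subunits changed little with the scaling. For snf1∆ over WT at 24 hr the median of the subunits minus that of all genes was -0.35 at library size alone, -0.36 with relative log expression (RLE) factors and -0.35 with DESeq2, and for JS1416 over WT at 24 hr it was -0.45 in each. In bulk cultures, a lower level per cell and fewer cells with the transcript cannot be told apart.

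Entry of WT cultures into the post-diauxic phase at 24 hr moved the particle's transcripts in both directions on the TMM scale. Relative to 5 hr, 10 of the 33 members rose and 8 fell, while 41.2% of all 6616 tested genes rose and 38.5% fell. At library size alone 2 members rose and 17 fell, beside 29.8% and 47.7% of all genes, and 28 of the 32 subunits had a negative log2 fold change, against 16 with TMM. The median log2 fold change of the 32 subunits was 0.00, beside 0.10 for all other genes, and 10 subunits lay above (44.5% of all genes) and 12 below (41.7%) their 5 hr range without overlap. By place in the particle, 7 of 18 regulatory subunits rose and 3 fell (median 0.14), whereas 2 of 14 core subunits rose and 5 fell (median -0.28). Under that scaling 5 of the called rises, those of RPT3, RPT4, RPT5, RPT6 and RPN13, had the opposite sign, at -0.22, -0.07, -0.17, -0.15 and -0.05.

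Among the subunits that rose, PUP2 of the alpha ring had 253, 264 and 244 CPM at 24 hr, against 136, 140.2 and 139 CPM at 5 hr (log2 fold change 0.87, SE 0.12, edgeR adjusted p = 2.03e-06). RPN10, a ubiquitin receptor, had 179.8, 181 and 175 CPM at 24 hr, against 90.3, 116 and 99.7 CPM at 5 hr (log2 fold change 0.81, SE 0.13, edgeR adjusted p = 1.01e-05, but 0.30 and not called at library size alone). The groups did not overlap for either gene. RPN11, the deubiquitinase of the lid, SCL1 of the alpha ring, and the ATPases RPT4, RPT6, RPT5 and RPT3 rose by 0.55, 0.54, 0.44, 0.35, 0.34 and 0.29, although RPN11 and SCL1 were at 0.03 and 0.03 and not called at library size alone. RPN13, another intrinsic ubiquitin receptor, rose by 0.46.

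The falls in WT reached further than the rises of subunits, and 5 of the 8 were in the core. PUP1, the trypsin-like beta subunit, had 42.7, 40.4 and 40.1 CPM at 24 hr, against 107, 104 and 106 CPM at 5 hr (log2 fold change -1.36, SE 0.25, edgeR adjusted p = 5.48e-05). PRE6, an alpha subunit, had 64.9, 55.7 and 63.9 CPM at 24 hr, against 134, 141 and 144 CPM at 5 hr (log2 fold change -1.18, SE 0.19, edgeR adjusted p = 1.27e-05). PRE9, the alpha subunit that yeast can live without, had 63.7, 60.2 and 69.0 CPM at 24 hr, against 133, 149 and 148 CPM at 5 hr (log2 fold change -1.16, SE 0.18, edgeR adjusted p = 5.84e-06). Every 24 hr library of these genes lay below every 5 hr library. RPN7 of the lid fell to 49.1, 52.3 and 57.9 CPM at 24 hr, against 104, 131 and 116 CPM at 5 hr (log2 fold change -1.14), and PRE1, RPN9, PRE10 and RPT1 fell with log2 fold changes of -1.05, -0.71, -0.65 and -0.60. The 5 subunits with no exact PACE were found at both ends, at -1.36 for PUP1, -0.17 for PRE5, 0.01 for RPN8, 0.46 for RPN13 and 0.81 for RPN10, while PRE9, PRE6 and PUP2 each hold 1 exact match.

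In snf1∆ cultures the same interval brought few rises. Of the 33 members 1 rose (36.5% of all genes did) and 11 fell (30.5% of all genes), with a subunit median of -0.20 beside 0.09 for all other genes. PUP2 was the member that rose (log2 fold change 0.30, SE 0.12, edgeR adjusted p = 0.0367), at 155, 175 and 186 CPM at 24 hr, against 145, 141 and 133 CPM at 5 hr. This call was lost with RLE factors, at library size alone, with a stricter filter and with the 2 groups alone, and in 5 of the 6 fits that each left out 1 library. PRE3, the caspase-like subunit, stood higher at 0.35 and PRE8 of the alpha ring at 0.19, neither called. The lowest were PRE6 (log2 fold change -0.90, SE 0.19, edgeR adjusted p = 3.83e-04), PUP1 (log2 fold change -0.71, SE 0.25, edgeR adjusted p = 0.0157) and PRE10 (log2 fold change -0.70, SE 0.20, edgeR adjusted p = 0.00496). The others that fell were RPN4, the scaffolds RPN1 and RPN2, the ATPase RPT2, the lid subunit RPN9, and PRE1, PRE5 and PUP3 of the core. Without snf1∆ 24 hr replicate 1, 7 members rather than 11 fell (28.2% of all genes).

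**Figure D3:**
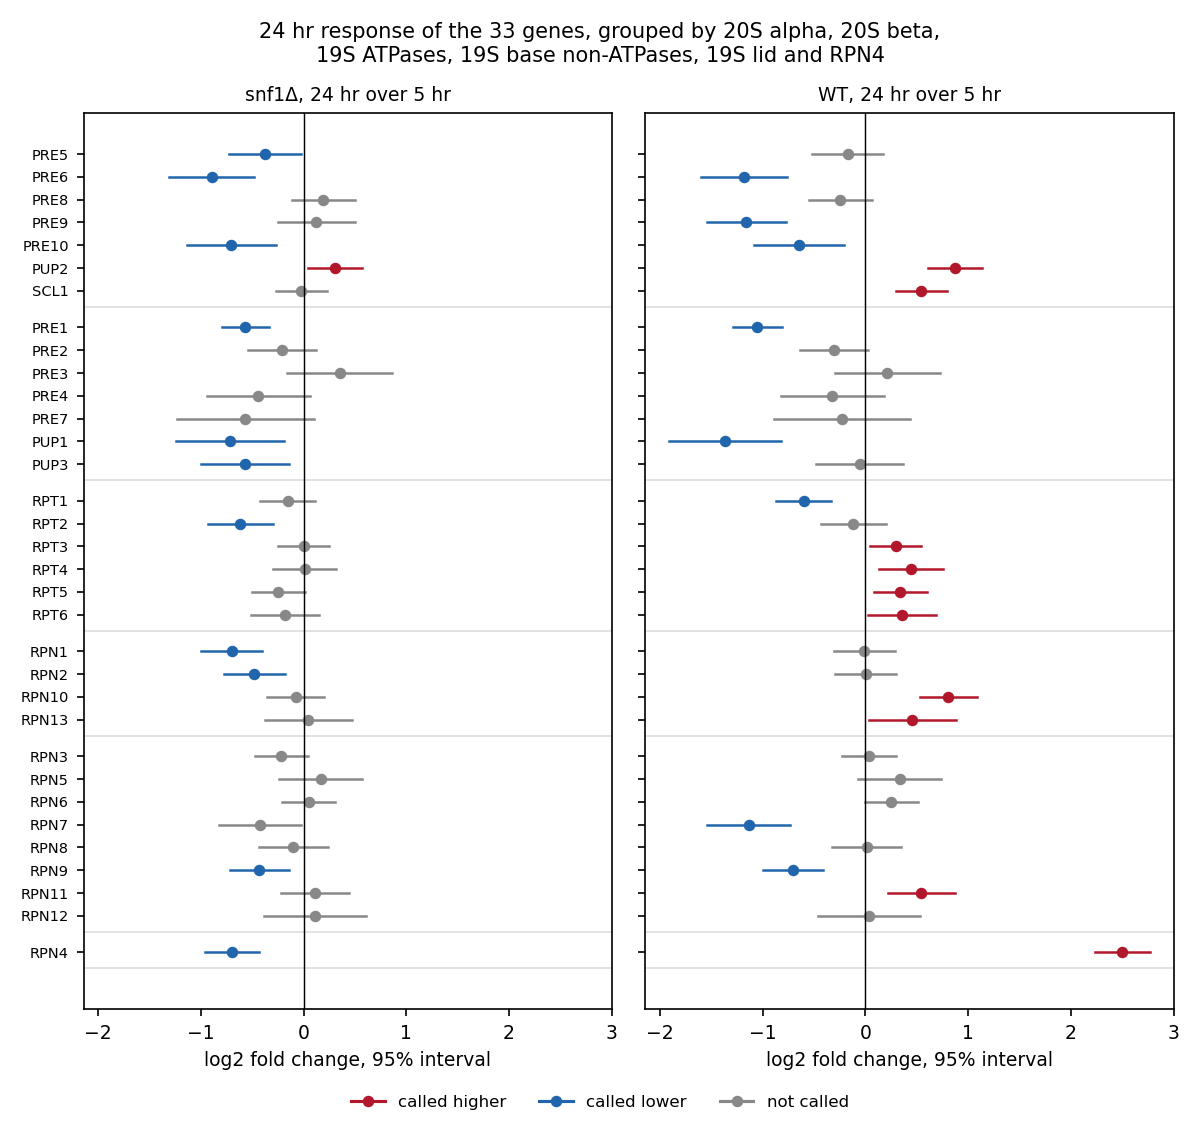
Log2 fold change of each member at 24 over 5 hr with its 95% interval (x axis), for snf1∆ on the left and WT on the right, with genes grouped by their place in the particle (y axis). RPN4 stands at -0.69 in snf1∆ and at 2.50 in WT, and 4 of 6 ATPases are called higher in WT and none in snf1∆.

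The direct test of the difference between the snf1∆ and WT responses called 4 members higher (29.3% of all genes) and 9 lower (25.6%). Beside RPN4, the members whose response was lower in snf1∆ were RPN10 (log2 fold change -0.88, SE 0.18, edgeR adjusted p = 4.22e-04), RPN1 (log2 fold change -0.69, SE 0.20, edgeR adjusted p = 0.00551), RPT5, PUP2, SCL1, RPT6, RPT2 and RPN2, that is, 3 ATPases, 3 of the 4 other base subunits and 2 alpha subunits. The members whose response was higher were PRE9 (log2 fold change 1.28, SE 0.25, edgeR adjusted p = 2.25e-04), RPN7 (log2 fold change 0.71, SE 0.27, edgeR adjusted p = 0.0287), PRE1 and RPT1. PUP1, next in that direction at 0.65, was not called (edgeR adjusted p = 0.124). The 4 higher calls became 2 (25.9 to 27.2% of all genes) when any 1 of WT 5 hr replicate 2, WT 24 hr replicates 1 and 2, snf1∆ 5 hr replicates 1 and 3 or snf1∆ 24 hr replicate 3 was left out. At library size alone the 4 higher and 9 lower calls became 6 (38.3% of all genes) and 1 (17.1%), the lower one being RPN4 at -2.84.

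At 24 hr the regulatory and the core subunits were uneven between snf1∆ and WT. Compared with WT, 5 members were higher in snf1∆ (33.7% of all genes) and 14 lower (30.3%). In the 19S particle 10 of 18 subunits were lower and 2 higher (median -0.32), and in the 20S core 3 of 14 were lower and 3 higher (median 0.00). By raw share of counts the summed subunits were higher in snf1∆, as given above, and at library size alone 8 members were higher (49% of all genes) and 2 lower (19%), the call being kept for 7 of these 19 members, with RPT3 and RPN3 turning to 0.15 and 0.09. Without snf1∆ 24 hr replicate 1, 8 members rather than 14 were lower (28.7% of all genes). Of the 32 subunits, 6 lay above (39.5% of all genes) and 18 below (34.9%) the WT range without overlap.

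On the TMM scale all but 1 of the ATPases were lower in snf1∆ at 24 hr. At library size alone only 2 of the 33 members were called lower (19% of all genes), so most of the lower calls given here depended on the scaling. RPT6 had 139, 136 and 153 CPM in snf1∆, against 188, 195 and 229 CPM in WT (log2 fold change -0.52, SE 0.16, edgeR adjusted p = 0.00668). RPT2, RPT4, RPT5 and RPT3 had log2 fold changes of -0.63, -0.46, -0.46 and -0.28, and RPT1 was higher, with 192, 198 and 237 CPM in snf1∆, against 150.3, 143 and 143 CPM in WT (log2 fold change 0.52, SE 0.13, edgeR adjusted p = 0.00132). The ubiquitin receptor RPN10 had 96.4, 110.1 and 90.1 CPM in snf1∆, against 179.8, 181 and 175 CPM in WT (log2 fold change -0.86, SE 0.13, edgeR adjusted p = 1.03e-05). RPN1, which docks the shuttle factors, had 181, 179 and 173 CPM in snf1∆, against 275, 283 and 269 CPM in WT (log2 fold change -0.63, SE 0.14, edgeR adjusted p = 4.92e-04, but -0.22 and not called at library size alone). The groups did not overlap for these genes. RPN13 and the lid subunits RPN11 and RPN3 were lower by the same test, at -0.53, -0.45 and -0.33, and RPN2 was just outside it (log2 fold change -0.32, SE 0.14, edgeR adjusted p = 0.052).

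In the core, PRE9 had 123, 120.2 and 150.3 CPM in snf1∆, against 63.7, 60.2 and 69.0 CPM in WT at 24 hr (log2 fold change 1.03, SE 0.18, edgeR adjusted p = 4.61e-05). PRE8 and PRE1 were also higher, at 0.44 and 0.36, and RPN7 of the lid had 70.2, 74.1 and 96.0 CPM in snf1∆, against 49.1, 52.3 and 57.9 CPM in WT (log2 fold change 0.60, SE 0.19, edgeR adjusted p = 0.0104). PUP1 stood at 0.54 (edgeR adjusted p = 0.0715) although its snf1∆ libraries were all above those of WT. PUP2, PUP3 and SCL1 were lower, at -0.56, -0.54 and -0.50. The genes higher in snf1∆, PRE9, RPN7, RPT1, PRE8 and PRE1, each hold an exact PACE, as do 27 of the 32 subunits. Those that were lower hold it too, except RPN10, RPN13 and RPN4.

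In the suppressor JS1416 at 24 hr RPN4 stood between snf1∆ and WT, and the summed subunits below both. Against snf1∆, RPN4 was the 1 member that was higher (20.1% of all genes) and 7 were lower (27.4%). The subunit median was -0.26, beside -0.16 for all other genes, and 20 subunits lay below the snf1∆ range (43.6% of all genes) and 1 above it (31.5%) without overlap. PRE9 had 66.8 and 63.9 CPM in JS1416, against 123, 120.2 and 150.3 CPM in snf1∆ (log2 fold change -1.01, SE 0.20, edgeR adjusted p = 4.30e-04). RPT1 had 130.1 and 123 CPM in JS1416, against 192, 198 and 237 CPM in snf1∆ (log2 fold change -0.72, SE 0.15, edgeR adjusted p = 4.13e-04). Both JS1416 values of each gene lay below all 3 snf1∆ values. PRE6, RPN2, RPN6, PRE8 and PRE1 were also lower, at -0.61, -0.47, -0.47, -0.45 and -0.38, and RPN12 of the lid stood at -0.63 (edgeR adjusted p = 0.0575). Behind RPN4 the highest were SCL1 at 0.26 and RPN5 of the lid at 0.22, neither called. With 2 JS1416 libraries the count of lower members was unsteady, at 4 without snf1∆ replicate 2, 3 without JS1416 replicate 1, 2 without JS1416 replicate 2, and 14 when the 2 doubtful 48 hr libraries were left out of the shared fit. At library size alone it was 31, with 66.3% of all genes lower.

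Against WT at 24 hr, JS1416 had 15 members lower (22.7% of all genes) and 0 higher (20.2%). In edgeR's test 17 members had an unadjusted p under 0.05 (50.2% of all genes did), and DESeq2 also called 0 higher. The lower members were RPN4, 12 of the 18 regulatory subunits and 2 core subunits, PUP2 and PRE5, with medians of -0.57 for the 19S particle and -0.35 for the core, beside -0.06 for all other genes. All 4 scaffold and receptor subunits were among them. RPN10 had 92.6 and 89.6 CPM in JS1416, against 179.8, 181 and 175 CPM in WT (log2 fold change -0.97, SE 0.15, edgeR adjusted p = 3.02e-05). RPN1 had 154 and 147 CPM in JS1416, against 275, 283 and 269 CPM in WT (log2 fold change -0.88, SE 0.16, edgeR adjusted p = 1.68e-04). RPN2 had 231 and 236 CPM in JS1416, against 402, 422 and 387 CPM in WT (log2 fold change -0.79, SE 0.16, edgeR adjusted p = 5.11e-04). Both JS1416 libraries were below all WT libraries in each case, and 24 of the 32 subunits lay below the WT range in this way (39% of all genes) while 1 lay above it (34.2%). At library size alone all 15 lower calls were kept, but the median of all genes moved by -0.395 on the log2 scale. In that fit 22 members and 39.7% of all genes were lower, so the kept calls are not separate support. PUP1, RPN7 and PRE9, which were among the 4 that fell furthest in WT at 24 hr, were the highest members between JS1416 and WT at 0.13, 0.09 and 0.02, with 95% intervals of -0.47 to 0.74, -0.36 to 0.55 and -0.40 to 0.45.

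**Figure D4:**
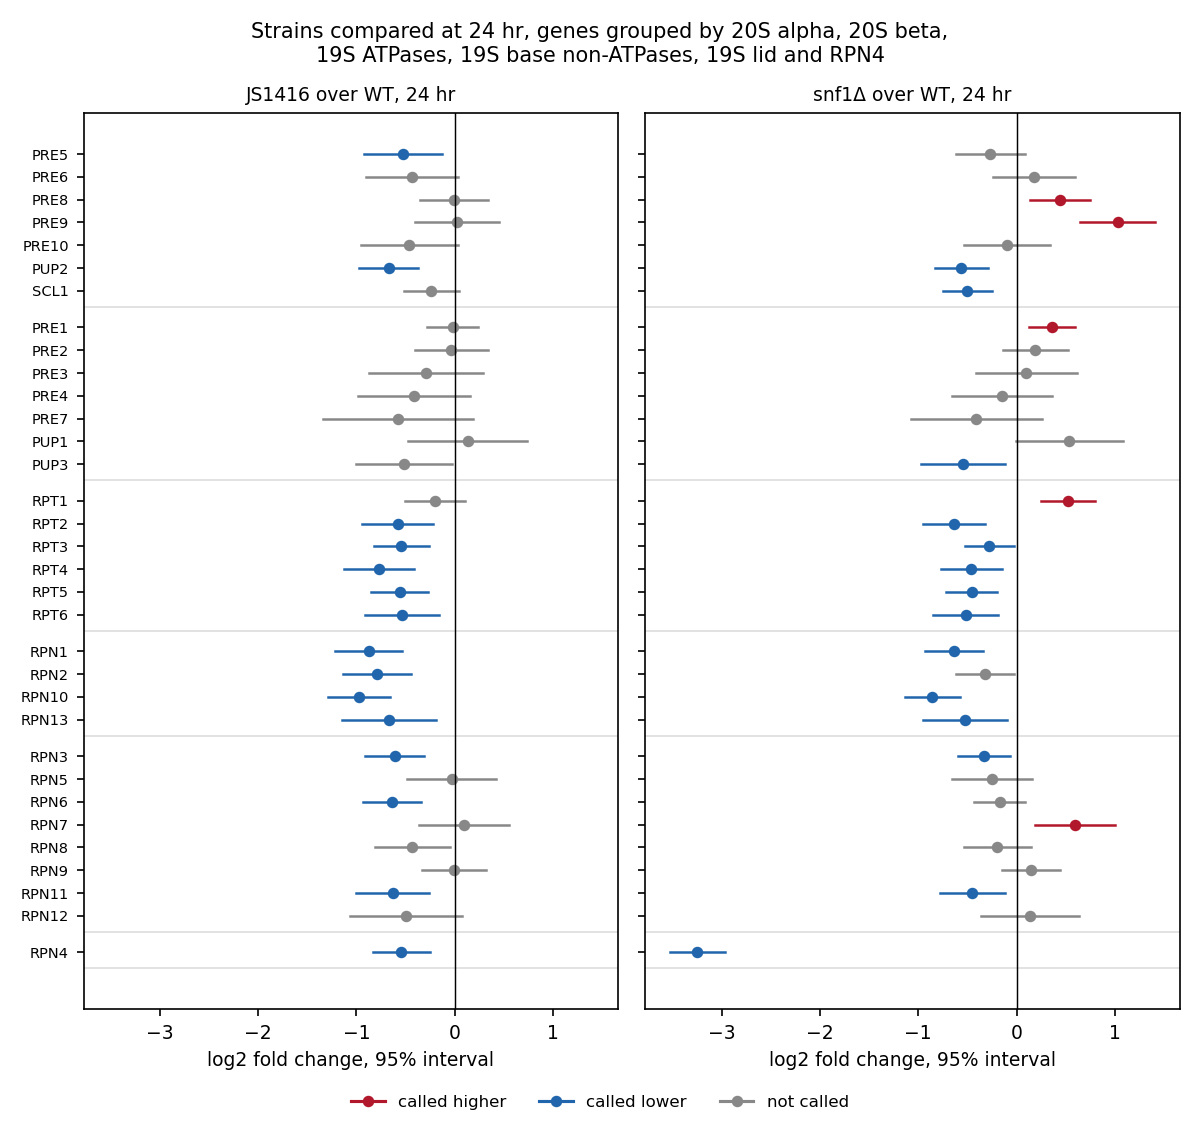
Log2 fold change of each member at 24 hr with its 95% interval (x axis), for JS1416 over WT on the left and snf1∆ over WT on the right, with genes grouped by their place in the particle (y axis). PRE9 stands at 0.02 on the left and 1.03 on the right, and RPN4 at -0.55 and -3.24. Both panels share the WT libraries.

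In log phase no member was called between snf1∆ and WT. At 5 hr 0 members were higher in snf1∆ (1.69% of all genes) and 0 lower (0.423%) in edgeR's test, 0 passed an unadjusted p under 0.05 (10.4% of all genes did), and DESeq2 also called 0. Without overlap between the groups, 1 subunit, RPT5, lay above the WT range (14.8% of all genes) and 1, PRE9, below it (20%). The highest members were RPN2, RPT5 and PRE2, at 0.16, 0.13 and 0.10, and the lowest PRE9, RPT2 and RPN9, at -0.25, -0.14 and -0.13. The 95% intervals of all 33 log2 differences lay between -0.72 and 0.59, both bounds being those of PRE7, a beta subunit. With the replicate number as a block, a term shared by all 9 groups, 0 members were called as well. That term does not pair these 2 groups alone, and a paired test of them was not run.

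The JS1416 log-phase culture is a single library, so its values stand without a test. Of the 32 subunits 18 lay above the range of the snf1∆ libraries, 4 within it and 10 below, and against WT 19 lay above, 2 within and 11 below. Of all tested genes, 47.3% lay above the snf1∆ range and 33% below it, and 45.5% above the WT range and 32.1% below it. RPN4 was above both, at 85.7 CPM in JS1416, against 46.6, 48.4 and 46.1 CPM in snf1∆ and 46.6, 50.2 and 49.1 CPM in WT. All 7 beta subunits were above both ranges, for example PUP1 with 155 CPM in JS1416, against 105, 94.8 and 93.4 CPM in snf1∆ and 107, 104 and 106 CPM in WT. The ATPases were divided, with RPT3 and RPT5 above and RPT1, RPT2, RPT4 and RPT6 below both. RPN5 and RPN8 of the lid were well below, with 90.1 and 106 CPM in JS1416, against at least 137 and 166 CPM in every snf1∆ library.

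Between 24 and 48 hr more members fell than rose in WT and in snf1∆ on the TMM scale. In WT 0 members rose (19.6% of all genes) and 12 fell (19.8%), with a subunit median of -0.25 beside -0.02 for all other genes, and 19 subunits lay below their 24 hr range (31.2% of all genes) and 3 above it (27.2%) without overlap. Among the 33 members 13 had an unadjusted p under 0.05 (48.1% of all genes did), and DESeq2 also called 0 higher. RPN10 had 97.7, 106 and 101 CPM at 48 hr, against 179.8, 181 and 175 CPM at 24 hr (log2 fold change -0.81, SE 0.13, edgeR adjusted p = 8.43e-05). RPN1 had 169.7, 171 and 152 CPM at 48 hr, against 275, 283 and 269 CPM at 24 hr (log2 fold change -0.75, SE 0.14, edgeR adjusted p = 3.28e-04). RPN11 had 129.7, 116 and 138 CPM at 48 hr, against 213, 201 and 186 CPM at 24 hr (log2 fold change -0.65, SE 0.15, edgeR adjusted p = 0.00266). Every 48 hr library of these genes was below every 24 hr library, yet at library size alone none of the 12 falls was called, 6 members rose (43.1% of all genes) and 0 fell (3.69%), and PRE8, SCL1, RPT3, RPT6, RPN2 and RPN6 had the opposite sign. RPN5, RPN13 and RPN7 were the highest members, at 0.41, 0.33 and 0.29, none of them called, and 1 member rose without WT 48 hr replicate 2 (15.9% of all genes).

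In snf1∆ 1 member, RPN4, was higher at 48 than at 24 hr (19.8% of all genes) and 20 were lower (21.5%), 9 of 14 in the core and 11 of 18 in the 19S particle, with a subunit median of -0.41. Without the doubtful libraries the counts were 1 higher (26.2% of all genes) and 23 lower (27.8%). PRE9 had 46.7, 64.04 and 76.4 CPM at 48 hr, against 123, 120.2 and 150.3 CPM at 24 hr (log2 fold change -1.07, SE 0.19, edgeR adjusted p = 1.33e-04, and -1.26 without them). RPN12 had 32.1, 35.4 and 69.5 CPM at 48 hr, against 89.0, 94.4 and 102 CPM at 24 hr (log2 fold change -1.05, SE 0.25, edgeR adjusted p = 0.00245, and -1.50 without them). PUP1 had 23.3, 24.7 and 53.0 CPM at 48 hr, against 54.4, 65.9 and 58.5 CPM at 24 hr (log2 fold change -0.81, SE 0.27, edgeR adjusted p = 0.0224, and -1.31 without them). In each gene snf1∆ replicates 1 and 2 were lower than the library labelled replicate 3. RPN5 and RPN13 were the highest subunits, at 0.35 and 0.28, neither called. Leaving out snf1∆ 48 hr replicate 1 or 2 left 12 members lower (16.7 and 16.4% of all genes). Without snf1∆ 24 hr replicate 3 the higher count was 2 (16.7%), and with these 2 groups alone 8 were lower (12.2%).

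In JS1416 over the same interval 0 members rose (9.98% of all genes) and 2 fell (8.72%), RPN4 and PUP2, with a subunit median of -0.03. With library sizes as the only scaling the counts were 13 higher (44.1% of all genes) and 0 lower (1.72%). Of the 33 members 4 had an unadjusted p under 0.05 (33.3% of all genes did), and DESeq2 called 0 higher and 4 lower. PUP2 had 123, 109 and 129 CPM at 48 hr, against 155 and 164 CPM at 24 hr (log2 fold change -0.42, SE 0.14, edgeR adjusted p = 0.0426, but 0.09 at library size alone). RPN1 stood at -0.43 (edgeR adjusted p = 0.058), and the highest were RPN13, PRE6 and PRE9, at 0.43, 0.34 and 0.22, none of them called. The lower count was 1 without either JS1416 24 hr library, and 1 member was higher without either of JS1416 48 hr replicates 1 and 2. Without the doubtful libraries 2 members were higher (17.2% of all genes), PRE6 and PRE7, and 2 lower (17.9%).

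At 48 hr snf1∆ again lay below WT, now in the core as well as in the 19S particle. There 0 members were higher (18.1% of all genes) and 15 lower (17.7%), 4 in the core, 10 in the 19S particle and RPN4, with medians of -0.33 for the core and -0.42 for the 19S particle, beside -0.01 for all other genes. The unadjusted p was under 0.05 for 19 members (45% of all genes), and DESeq2 also called 0 higher. Without the doubtful libraries the counts were 0 higher (25% of all genes) and 22 lower (26.5%). PRE7, a beta subunit, had 33.2, 38.0 and 108 CPM in snf1∆, against 114, 117 and 98.2 CPM in WT (log2 fold change -0.86, SE 0.33, edgeR adjusted p = 0.046, and -1.62 without them). RPN3 of the lid had 89.8, 78.7 and 106 CPM in snf1∆, against 161, 155 and 173 CPM in WT (log2 fold change -0.83, SE 0.13, edgeR adjusted p = 4.83e-05, and -0.95 without them). PRE4, another beta subunit, had 52.5, 52.7 and 98.6 CPM in snf1∆, against 119, 123 and 89.8 CPM in WT (log2 fold change -0.70, SE 0.25, edgeR adjusted p = 0.033, and -1.07 without them). For PRE7 and PRE4 the library labelled snf1∆ replicate 3 fell within the WT range and the other 2 far below it. PRE2, SCL1 and PRE8 were the highest members, at 0.24, 0.13 and 0.12, none of them called. With 1 of snf1∆ 48 hr replicates 1 or 2 or WT 48 hr replicates 1 or 3 left out, 7, 6, 9 and 8 members were lower (12.2, 12.1, 15.1 and 13.9% of all genes). With these 2 groups alone 1 member was lower (8.98%).

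Between JS1416 and WT at 48 hr 1 member was higher (15.8% of all genes) and 8 lower (15.2%), and without the doubtful libraries 1 (20.3%) and 9 (22%). The higher one, PRE2, the chymotrypsin-like subunit, had 146, 151 and 228 CPM in JS1416, against 129, 133 and 126 CPM in WT (log2 fold change 0.42, SE 0.16, edgeR adjusted p = 0.0499), a call that was kept by DESeq2 and without the doubtful libraries, was lost in the 6 other alternative fits, and was lost without any 1 of the WT 48 hr replicates or JS1416 replicate 3. RPN3 had 97.4, 107 and 98.5 CPM in JS1416, against 161, 155 and 173 CPM in WT (log2 fold change -0.69, SE 0.13, edgeR adjusted p = 3.24e-04). RPT4 had 98.5, 96.8 and 102 CPM in JS1416, against 139, 132 and 187 CPM in WT (log2 fold change -0.63, SE 0.15, edgeR adjusted p = 0.00324). The groups did not overlap for RPN3 and RPT4. RPN8, RPN13, RPN1, RPT2 and PUP2 were lower too, at -0.60, -0.57, -0.56, -0.55 and -0.46, while PRE8 and PUP1, the highest after PRE2, stood at 0.15 and 0.07. Without the doubtful libraries RPN3, RPT4 and RPN13 stood at -0.65, -0.63 and -0.85, and RPN5 was also called lower, at -0.68. Without WT 48 hr replicate 3 the lower count was 4 (10.7% of all genes), and with these 2 groups alone it was 0 (3.79%).

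Whether JS1416 and snf1∆ differed at 48 hr depended on the 2 doubtful libraries. As labelled, 0 members were higher (0% of all genes) and 0 lower (0%) in edgeR's test, 1 member, PRE6, had an unadjusted p under 0.05 (4.16% of all genes did), and DESeq2 also called 0. Without them 11 members were higher in JS1416 (21.8% of all genes) and 1 was lower (24%). The higher ones were PRE3, PRE4, PRE6, PRE7, PRE9, PRE10, PUP1 and PUP3 of the core and RPT6, RPN7 and RPN12, and the lower one was RPN11. Because the doubtful libraries were picked for likeness to the other strain, leaving them out itself widens the gap and narrows the spread. With 2 libraries of each strain remaining, these calls cannot settle whether the strains differed. PRE7 had 43.2, 97.5 and 117 CPM in JS1416 replicates 1, 2 and 3, against 33.2, 38.0 and 108 CPM in snf1∆ replicates 1, 2 and 3 (log2 fold change 0.46, SE 0.33, edgeR adjusted p = 0.785, and without the doubtful libraries log2 fold change 1.55, SE 0.17, edgeR adjusted p = 7.01e-08). PUP1 had 27.9, 52.7 and 69.6 CPM in JS1416, against 23.3, 24.7 and 53.0 CPM in snf1∆ (log2 fold change 0.47, and without the doubtful libraries log2 fold change 1.25, SE 0.20, edgeR adjusted p = 1.63e-05). PRE6 had 37.5, 62.0 and 81.4 CPM in JS1416, against 35.0, 32.02 and 51.4 CPM in snf1∆ (log2 fold change 0.54, and 1.01 without them). In all 3 genes the library labelled JS1416 replicate 1 sat beside snf1∆ replicates 1 and 2, and among the JS1416 libraries that labelled snf1∆ replicate 3 was nearest to replicate 2 for PUP1 and PRE6 and to replicate 3 for PRE7. The lowest members as labelled were RPN5, PUP2 and RPN8, at -0.17, -0.14 and -0.12, and RPN11 was -0.10 as labelled and -0.47 without the doubtful libraries. Leaving out the library labelled snf1∆ replicate 3 alone gave 3 higher members (5.03% of all genes), and leaving out that labelled JS1416 replicate 1 alone gave 5 (6.24%).

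**Figure D5:**
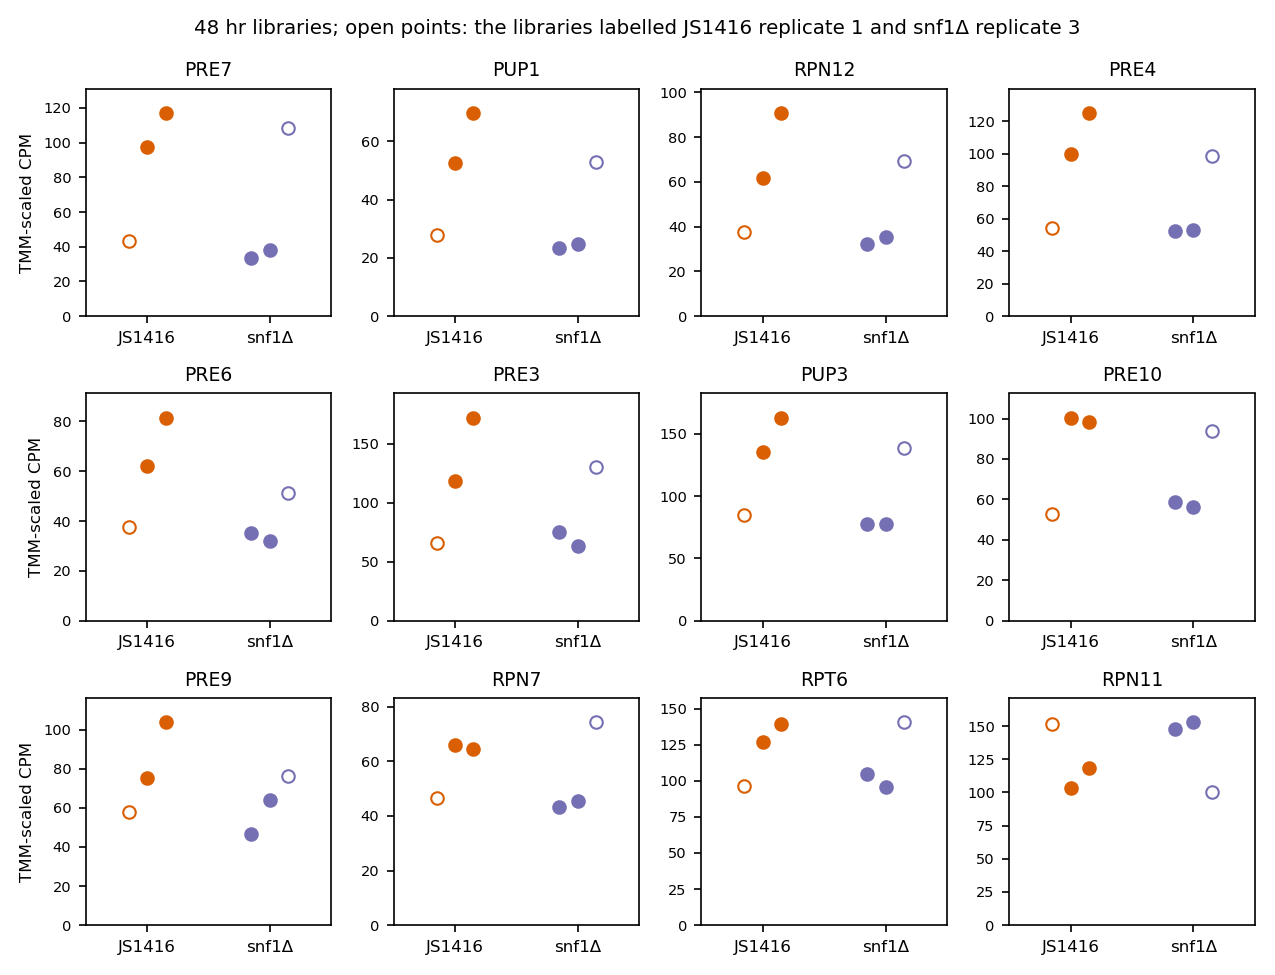
TMM-scaled CPM at 48 hr (y axis, from 0) of the 12 members called between JS1416 and snf1∆ without the 2 doubtful libraries, which are drawn open, with JS1416 on the left of each panel and snf1∆ on the right (x axis). The open libraries were picked from these same counts, so the separation of the filled points is partly built in. For PRE7 the open JS1416 point is at 43.2 CPM, near the filled snf1∆ points at 33.2 and 38.0, and the open snf1∆ point is at 108 CPM, near the filled JS1416 points at 97.5 and 117.

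The proteolytic subunits followed separate courses across the 9 groups. PRE3 had 178, PRE2 247 and PUP1 155 CPM in the JS1416 log-phase library. For PRE3, snf1∆ had 125, 124 and 117 CPM and WT 126, 129 and 119.7 CPM at 5 hr. At 24 hr PRE3 had 119.9 and 118 CPM in JS1416, 153, 152 and 161 CPM in snf1∆ and 163, 149 and 124 CPM in WT. At 48 hr it had 66.2, 119 and 172 CPM in JS1416, 75.2, 63.4 and 129.9 CPM in snf1∆ and 118, 117 and 107 CPM in WT. PRE3 overlapped between snf1∆ and WT at 5 and 24 hr and was spread widest at 48 hr, where it was called lower in snf1∆ than in WT when the doubtful libraries were left out (log2 fold change -0.71, against -0.34 and not called with them). PRE2 at 5 hr had 206, 221 and 183 CPM in snf1∆ and 186, 212 and 172 CPM in WT. At 24 hr it had 150.3 and 149.7 CPM in JS1416, 175, 193 and 159 CPM in snf1∆ and 168, 159 and 134 CPM in WT. PRE2 was not called in any of the 24 hr comparisons. PUP1 fell in WT and in snf1∆ at 24 hr, and it had 43.7 and 46.3 CPM in the JS1416 libraries of that time. In WT it had 45.4, 53.2 and 36.7 CPM at 48 hr, within the range that spanned the JS1416 and snf1∆ libraries.

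RPT6, RPN1 and RPN11 stand for the ATPases, the scaffolds and the deubiquitinase. RPT6 had 132 CPM in JS1416, 154, 176 and 156 CPM in snf1∆ and 143, 172 and 164 CPM in WT at 5 hr, and 136 and 146 CPM in JS1416 at 24 hr. At 48 hr it had 96.7, 127 and 139 CPM in JS1416, 105, 95.4 and 141 CPM in snf1∆ and 147, 141 and 172 CPM in WT. RPT6 was thus highest in WT at 24 hr. RPN1 had 391 CPM in JS1416, 297, 287 and 281 CPM in snf1∆ and 286, 265 and 283 CPM in WT at 5 hr. At 48 hr RPN1 had 105, 138 and 86.7 CPM in JS1416 and 118, 94.7 and 121 CPM in snf1∆, against 169.7, 171 and 152 CPM in WT. RPN1 fell in snf1∆ at 24 over 5 hr (log2 fold change -0.70, SE 0.14, edgeR adjusted p = 1.72e-04), where in WT its log2 fold change was -0.01, and the difference between these responses passed the test given above. RPN11 had 115 CPM in JS1416, 135, 138 and 135 CPM in snf1∆ and 127, 139.9 and 145 CPM in WT at 5 hr. At 24 hr it had 129.8 and 128 CPM in JS1416, 134, 149 and 157 CPM in snf1∆ and 213, 201 and 186 CPM in WT. At 48 hr it had 152, 103 and 118 CPM in JS1416, 148, 153 and 100.2 CPM in snf1∆ and 129.7, 116 and 138 CPM in WT. In RPN11 the library labelled snf1∆ replicate 3 was the lowest of its group at 48 hr and that labelled JS1416 replicate 1 the highest of its group.

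Transcripts of the subunits stood at unequal levels in these libraries. Per kilobase of coding length, the level of the highest subunit was 3.29 times that of the lowest in WT at 5 hr, with PUP3 at 298 and RPN7 at 90.7 CPM per kb, and the coefficient of variation over the 32 subunits was 31.8%. At 24 hr the ratio was 7.87 in WT, with PUP2 at 324 and RPN7 at 41.2 CPM per kb (43.3%), and 4.02 in snf1∆, with PRE3 at 239.6 and RPN1 at 59.6 CPM per kb (34.4%). JS1416 at 24 hr had a ratio of 4.77, with SCL1 at 209.9 and RPN7 at 44 CPM per kb (41%). At 48 hr the lowest subunit was RPN1 in JS1416, at 36.8 CPM per kb, and in snf1∆, at 37.3 CPM per kb, whereas in WT it was RPN7, at 50.4 CPM per kb. These levels are over coding length alone, since untranslated ends were not annotated.

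Among 20 ubiquitin and shuttle genes, 13 rose and 3 fell in WT at 24 over 5 hr, beside 41.2% and 38.5% of all genes. The furthest were UBC5, a stress-related conjugating enzyme (log2 fold change 3.01, SE 0.34, edgeR adjusted p = 7.11e-08), and MUB1, a partner of the ligase that targets Rpn4, at -1.15. At 24 hr 11 of the 20 were lower in snf1∆ than in WT (30.3% of all genes) and 0 higher (33.7%), with a median of -0.53, and the furthest was the shuttle factor DDI1 (log2 fold change -1.54, SE 0.30, edgeR adjusted p = 1.59e-04). Both sets of counts are on the TMM scale. At library size alone the median of all genes moved by -0.51 for the WT interval and by 0.42 for snf1∆ over WT. UBC5 had 69.5 and 69.4 CPM in JS1416, 70.7, 63.0 and 52.6 CPM in snf1∆ and 171, 179 and 159 CPM in WT at 24 hr. In JS1416 against snf1∆ at that time 6 of the 20 were higher (20.1% of all genes, and 3 of the 20 without JS1416 replicate 1) and 1 (27.4%), the ubiquitin-activating enzyme UBA1, was lower at -0.86, while at library size alone CDC48, UFD1, UFD4 and UBI4 among the higher ones had the opposite sign. UBC4, a close relative of UBC5, had 921 and 891 CPM in JS1416, 184, 193 and 203 CPM in snf1∆ and 365, 371 and 343 CPM in WT, and was higher in JS1416 than in snf1∆ (log2 fold change 2.23, SE 0.25, edgeR adjusted p = 5.97e-07) and than in WT (1.33). In JS1416 against WT 2 of the 20 were higher (20.2% of all genes) and 10 lower (22.7%, and 4 to 6 of the 20 with any 1 library left out), UBC5 being the lowest at -1.29. Exact PACE letters were present in 4 of these 20 promoters, those of UBI4, UBA1, CDC48 and CUZ1. Of the 75-base stretches of UBI4, a gene of ubiquitin repeats, 13.99% occurred more than once in the genome, so its counts are uncertain. Copies within UBI4 itself were not set apart from those elsewhere.

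The 10 assembly chaperones divided by whether they act on the core or the base, which is given as a description of a short list. In WT at 24 over 5 hr the 5 that rose were those of the base, NAS2, HSM3, TMA17, RPN14 and NAS6, at 2.04, 1.41, 1.24, 1.19 and 0.82. The 3 that fell act on the alpha ring, ADD66, IRC25 and POC4, at -1.26, -1.16 and -2.38. Over all genes 41.2% rose and 38.5% fell. In snf1∆ against WT at 24 hr the 5 higher ones were the core chaperones IRC25, POC4, ADD66, UMP1 and PBA1, at 1.74, 1.59, 1.11, 0.55 and 0.41, and the 4 lower ones were the base chaperones NAS6, NAS2, RPN14 and HSM3, at -1.05, -0.62, -0.39 and -0.39, beside 33.7% of all genes higher and 30.3% lower. At library size alone RPN14 and HSM3 were at 0.03 each and the others kept their sign. The higher count was 3 with DESeq2 and without WT replicate 1 or 3 or snf1∆ replicate 1 or 3, and the lower count 2 without WT replicate 3 or snf1∆ replicate 1 or 2. IRC25 had 17.1 and 18.1 CPM in JS1416, 29.3, 22.7 and 30.4 CPM in snf1∆ and 7.60, 8.09 and 8.86 CPM in WT. NAS2 had 30.0 and 27.2 CPM in JS1416, 31.3, 30.8 and 37.1 CPM in snf1∆ and 51.5, 50.3 and 51.8 CPM in WT. IRC25 did not overlap between snf1∆ and WT, and neither did NAS2, with opposite directions. In JS1416 against snf1∆ 2 were higher (20.1% of all genes) and 3 lower (27.4%, and 1 of the 10 without either JS1416 library), furthest TMA17 at 0.80 (but -0.01 at library size alone) and UMP1, which acts in maturation of the core, at -0.90. In JS1416 against WT 4 were higher (20.2% of all genes) and 2 lower (22.7%, with 1 or 2 of the 10 higher and 1 lower when any 1 library was left out), furthest IRC25 at 1.09 and NAS2 at -0.84. No chaperone promoter held the exact PACE letters (0 of 10).

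Of 8 associated factors, SPG5, a proteasome regulator of stationary phase, had 189.8 and 182 CPM in JS1416, 177, 154 and 159 CPM in snf1∆ and 1096, 1138 and 1378 CPM in WT at 24 hr. It was lower in snf1∆ than in WT (log2 fold change -2.88, SE 0.23, edgeR adjusted p = 1.74e-09) and lower in JS1416 than in WT (-2.70), and rose in WT at 24 over 5 hr by 4.33. CIC1, known mainly for its role in ribosome assembly, was lowest in WT at 24 over 5 hr at -4.50 and highest in snf1∆ over WT at 1.92. ECM29, a tethering factor whose promoter holds PACE, was lower in JS1416 than in snf1∆ at -1.31. Among the 4 activators of RPN4, the heat shock factor gene HSF1 had 150.2 and 153 CPM in JS1416, 143, 145 and 147 CPM in snf1∆ and 242, 235 and 238 CPM in WT at 24 hr. HSF1 rose in snf1∆ at 24 over 5 hr (log2 fold change 1.57, SE 0.11, edgeR adjusted p = 3.72e-10) and in WT (log2 fold change 2.40, SE 0.11, edgeR adjusted p = 1.47e-13), and was lower in snf1∆ than in WT (log2 fold change -0.71, SE 0.11, edgeR adjusted p = 1.06e-05). YAP1, an oxidative stress regulator, was lower in snf1∆ too, at -0.36 (0.06 at library size alone), and PDR1, a drug resistance regulator, was higher at 0.72 and lower in JS1416 than in snf1∆ at -1.34.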

How the data were processed

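Poly(A) RNA was measured in 24 libraries of 9 strain and time groups, made with a directional kit and read as 75-base single ends. The deposited values are read counts per ORF: the authors aligned the reads with Bowtie2 against sacCer3, then took counts for 6692 ORFs from bedtools multicov. Versions, the strand option and a mapping-quality filter are not given in the sources used here. Columns were matched to samples by strain number, time and replicate.

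Counts were tested as deposited with edgeR 4.0.16 in R 4.3.3 (quasi-likelihood F test, TMM factors, filterByExpr, 6616 ORFs tested), in 1 model of all 9 groups whose shared spread had a common dispersion of 0.0378. Genes with a Benjamini-Hochberg adjusted p under 0.05 over all tested ORFs were called. SE is the size of the log2 fold change over the square root of F. CPM used TMM-scaled library sizes. Total counts per library limit the precision of single values, most in the library of 747098 counts.

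Members and lists were chosen with earlier results of these data known. In each comparison RPN4 and the 3 highest and 3 lowest members are named, and PRE3, PUP1, PRE2, RPT6, RPN1 and RPN11 are given per library. Alternatives were RLE factors, library size alone, DESeq2 1.42.0, omitting the filter or raising it to 10 counts in every library, the replicate number as a block, only the groups compared, the 2 doubtful libraries left out, and each library left out in turn. For the block, deviations of same-numbered samples from their group means were correlated: all 3 pairs were over 0.1 in 1 of 21 pairs of groups, WT and snf1∆ at 5 hr (0.327, 0.514 and 0.128). The promoter windows were read from the R64 reference.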

Additional observations from a re-analysis of the deposited data

Results flagged for a closer look

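In 13 members the response at 24 over 5 hr differed between snf1∆ and WT by the interaction test of edgeR over 3 libraries a group, and no explanation was weighed. The difference, snf1∆ minus WT on the log2 scale, was -3.20 for RPN4, -0.88 for RPN10, -0.69 for RPN1, -0.59 for RPT5, -0.57 for PUP2, -0.56 for SCL1, -0.54 for RPT6, -0.50 for RPT2 and -0.48 for RPN2. It was 1.28 for PRE9, 0.71 for RPN7, 0.48 for PRE1 and 0.45 for RPT1. RPN4 was the member whose 2 responses were called in opposite directions, lower in snf1∆ and higher in WT. No group had 4 or more libraries, so single samples were not screened for outlying values.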

How the results depend on the processing

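Of 46 called values of named members, the sign and the call were kept in all 46 with DESeq2 and without the 2 doubtful 48 hr libraries, in 45 with no filter on low counts, in 44 with RLE factors, with at least 10 counts in every library and with the replicate block, in 35 with only the groups compared and in 34 at library size alone. With libraries left out in turn 265 of 297 such values were kept. The named members are RPN4 and the furthest of each comparison in these same data, so these shares do not stand for the other called members. Over all called members, RLE factors kept 4 of 8 for JS1416 over snf1∆ at 24 hr and 19 of 19 for snf1∆ over WT at 24 hr. DESeq2 kept 16 of 18 for WT at 24 over 5 hr. The fit without the doubtful libraries kept 20 of 21 for snf1∆ at 48 over 24 hr. Turned signs are listed below only for RPN4 and the highest and lowest members named in each comparison. Where causes of the changes below are not given by a value in the text, the cause was not tested.

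At library size alone the counts of members higher and lower became 2 and 17 for WT at 24 over 5 hr (29.8 and 47.7% of all genes). They became 6 and 0 for WT at 48 over 24 hr (43.1 and 3.69%) and 13 and 0 for JS1416 at 48 over 24 hr (44.1 and 1.72%). For snf1∆ over WT at 24 hr they were 8 and 2 (49 and 19%). The higher count became 0 for snf1∆ at 24 over 5 hr (30.4%). The lower count became 31 for snf1∆ over WT at 48 hr (44.3%) and 31 for JS1416 over snf1∆ at 24 hr (66.3%). It became 1 for the difference of responses (17.1%), and JS1416 over WT at 48 hr had 0 higher (6.76%) and 17 lower (36.1%). Signs turned for RPN5 (-0.10) and RPN13 (-0.18) in snf1∆ at 48 over 24 hr, for PUP2 (0.093) and RPN1 (0.075) in JS1416 at 48 over 24 hr, for RPN4 (0.021) in snf1∆ over WT at 5 hr, and for PRE2 (-0.29), SCL1 (-0.38) and PRE8 (-0.38) in snf1∆ over WT at 48 hr. They also turned for SCL1 (-0.55) and RPN5 (-0.60) in JS1416 over snf1∆ at 24 hr, for RPN8 (0.033) and PUP2 (0.015) at 48 hr, for PUP1 (-0.26), RPN7 (-0.30) and PRE9 (-0.37) in JS1416 over WT at 24 hr, and for PRE8 (-0.22) and PUP1 (-0.29) at 48 hr. Of these listed values, PUP2 in JS1416 at 48 over 24 hr was a called value. Over all called members, the sign also turned for 5 in WT at 24 over 5 hr. It turned as well for 6 in WT at 48 over 24 hr and for 2 in snf1∆ over WT at 24 hr.

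With at least 10 counts in every library there were 5 higher and 13 lower for WT at 24 over 5 hr (39.1 and 42.5% of all genes). There were 2 and 6 for WT at 48 over 24 hr (23.5 and 14.6%) and 0 and 19 for snf1∆ at 24 over 5 hr (31.9 and 37.2%). The higher count was 2 for JS1416 over snf1∆ at 24 hr (25.4%) and 0 for JS1416 over WT at 48 hr (15.6%). PRE8 (-0.019 in snf1∆ at 24 over 5 hr, -0.011 in snf1∆ over WT at 48 hr) and PUP1 (-0.018 in JS1416 over WT at 48 hr) turned. With RLE factors the higher count was 0 for snf1∆ at 24 over 5 hr (33.5% of all genes) and 2 for snf1∆ at 48 over 24 hr (21.7%). It was 2 for JS1416 over snf1∆ at 24 hr (23.2%), whose lower count was 3 (22.5%). For JS1416 over WT at 48 hr the higher count was 0 (15.8%), as it was with no filter (15.6%). DESeq2 gave 2 higher for snf1∆ at 48 over 24 hr (22.3%), 4 lower for JS1416 at 48 over 24 hr (11.5%) and 2 higher for JS1416 over snf1∆ at 24 hr (23.3%). With only the groups compared, the lower count was 14 for WT (44.4% of all genes) and 18 for snf1∆ (38.5%) at 24 over 5 hr. It was 8 for snf1∆ (12.2%) and 0 for JS1416 (0%) at 48 over 24 hr. At 48 hr it was 1 for snf1∆ over WT (8.98%) and 0 for JS1416 over WT (3.79%), and it was 15 for the difference of responses (34.1%). The higher count was 2 for WT at 48 over 24 hr (25.8%), 2 for JS1416 over snf1∆ at 24 hr (30.8%) and 0 for JS1416 over WT at 48 hr (4.86%).

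With the replicate number as a block, 1 member was lower in JS1416 at 48 over 24 hr, PUP2 having an edgeR adjusted p of 0.0536, and 0 were higher in JS1416 over WT at 48 hr, PRE2 having 0.0531. It changed no other count by over 1.5 times. Without the 2 doubtful libraries the higher count was 1 for WT at 48 over 24 hr (25.8% of all genes) and 2 for snf1∆ at 24 over 5 hr (41.1%). It was 2 for JS1416 at 48 over 24 hr (17.2%) and 11 for JS1416 over snf1∆ at 48 hr (21.8%). The lower count was 14 for JS1416 over snf1∆ at 24 hr (36.3%) and 1 at 48 hr (24%), and PRE8 in snf1∆ over WT at 48 hr was -0.0041.

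With 1 library left out at a time, the higher count ran over 0 to 1 for WT at 48 over 24 hr, 0 to 1 for snf1∆ at 24 over 5 hr, 1 to 2 for snf1∆ and 0 to 1 for JS1416 at 48 over 24 hr, 0 to 5 for JS1416 over snf1∆ and 0 to 1 for JS1416 over WT at 48 hr, and 2 to 4 for the difference of responses. The lower count ran over 7 to 12 for snf1∆ at 24 over 5 hr, 12 to 21 for snf1∆ and 1 to 2 for JS1416 at 48 over 24 hr, 8 to 14 for snf1∆ over WT and 2 to 7 for JS1416 over snf1∆ at 24 hr, and 6 to 17 for snf1∆ over WT and 4 to 9 for JS1416 over WT at 48 hr. Over all genes, the share lower in these fits ran over 28 to 29.1% for snf1∆ at 24 over 5 hr and 16.4 to 24.4% at 48 over 24 hr. For snf1∆ over WT it ran over 27.2 to 28.7% at 24 hr and 12.1 to 22.8% at 48 hr, and for JS1416 over WT at 48 hr over 10.7 to 16.3%. The share higher in JS1416 over snf1∆ at 48 hr ran over 0 to 6.24%. Values whose sign turned were those of PRE8 in snf1∆ over WT at 48 hr (-0.0043 to 0.24), RPN4 in JS1416 over snf1∆ at 48 hr (-0.036 to 0.18), PRE9 in JS1416 over WT at 24 hr (-0.023 to 0.077) and PUP1 in JS1416 over WT at 48 hr (-0.15 to 0.38), none of them called.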
